A study of Drosophila melanogaster with 5 samples.

Results

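The chemoreceptor genes of Drosophila melanogaster were followed through 5 arrays of neurons sorted for green fluorescent protein (GFP). The members were the probe sets whose single gene symbol in the array's annotation begins with Or, Gr or Ir and a digit, which gave 128 of 13966 probe sets and 123 genes. They comprise 53 probe sets for 52 odorant receptor (Or) genes, 28 for 28 gustatory receptor (Gr) genes and 47 for 43 ionotropic receptor (Ir) genes. In all 5 samples the GFP was driven from UAS-GFP by Cha-Gal4, a driver built from control DNA of the gene for choline acetyltransferase, so the cells are labelled as cholinergic neurons as far as that driver marks them. A group of 4 arrays (replicates a to d) holds neurons sorted from embryo cell cultures, and 1 array (replicate a) holds neurons sorted from dissociated larval brain. The labels give no age, culture time or strain, and do not say whether the 4 arrays came from separate cultures, so any spread between them may be technical. No array holds cells from outside the sort.

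Odorant receptors are membrane channels that open on binding an odorant and work together with the coreceptor Orco. Gustatory receptors detect sugars, bitter compounds and carbon dioxide, and ionotropic receptors, relatives of the ionotropic glutamate receptors, detect acids, amines, humidity and temperature with the coreceptors Ir8a, Ir25a and Ir76b. Most fly sensory neurons use acetylcholine, and the chemosensory neurons of the larva have their cell bodies in sense organs outside the brain. The reference used here held no protein, promoter or probe sequence, so none is shown.

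The deposited values are linear signal intensities per probe set, with no detection calls. Background was therefore set, array by array, at the brightest of 23 controls that match bacterial, yeast or mouse transcripts. Its value was 147.8 (a), 200.4 (b), 119.0 (c) and 271.3 (d) in embryo culture and 82.6 in larval brain, so the array with the lowest background is the larval one. The cholinergic markers ChAT and ChT stood above background on all 5 arrays in 3 of 3 probe sets. Markers of neurons in general did so in 1 of 8, futsch by 153032_at, and their summed signal was 719.6, 1072.6, 1916.7 and 2002.1 on arrays a to d against 6134.9 in larval brain. The neuronal RNA-binding protein gene elav was under background on arrays a and b, at 103.8 and 61.4, and above it on c, d and larval brain, at 712.6, 666.7 and 3047.2. Of 6 probe sets for glial markers, 3 stood above background on all 5 arrays. In larval brain all 6 did, where 68.0% of all probe sets did. The summed signal of the 6 was 1468 to 2227 in embryo culture against 1792 in larval brain. The glial fate gene gcm was under background on the embryo culture arrays, at 12.4 to 151.1, and at 673.6 in larval brain (adjusted p = 0.125). Whether the glial signals come from other cells in the sort was not tested. Of 15 probe sets for ciliated sensory neuron markers, those of Oseg1 and eys, 2 in all, did so, with sums of 1709 to 2460 and 1472, and nan, a channel gene of chordotonal neurons, was at or under background on all 5 arrays. Markers of sensory support cells were above it on all 5 arrays in 1 of 3 probe sets, with sums of 797.8 to 4190.9 and 1469.6. In bulk samples such as these, fewer cells of a type and less RNA per cell cannot be told apart.

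On each array most chemoreceptor probe sets were at or under the level of the controls. Of the 128 probe sets, 63 (49.2%) were at or under background on all 5 arrays, against 21.4% of all probe sets. At the other end, 9 (7.03%) were above background on all 5 arrays, against 37.8% of all probe sets. The remaining members were above it on 1 array (22), 2 arrays (12), 3 arrays (11) or 4 arrays (11). By array, 38, 29, 26 and 32 members were above background on arrays a to d of embryo culture, which is 29.7%, 22.7%, 20.3% and 25.0% of them. The shares of all probe sets on the same arrays were 59.6%, 53.8%, 61.9% and 48.6%. On the larval brain array 43 members (33.6%) were above background, against 68.0% of all probe sets. The median member had 0.521, 0.447, 0.419 and 0.377 times the background signal on arrays a to d and 0.570 times in larval brain.

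The families were not alike. Ir genes lay above background least often: 30 of 47 probe sets (63.8%) were at or under it on all 5 arrays, compared with 23 of 53 for Or (43.4%) and 10 of 28 for Gr (35.7%). Gr genes were above it on all 4 embryo culture arrays in 5 of 28 probe sets (17.9%), Or genes in 3 of 53 (5.66%) and Ir genes in 2 of 47 (4.26%), against 39.7% of all probe sets. On array d the Gr share was 50.0% beside 48.6% for all probe sets, the 1 array where a receptor family reached the overall share. These differences between families were not tested, since genes of a family are not replicates.

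**Figure D1:**
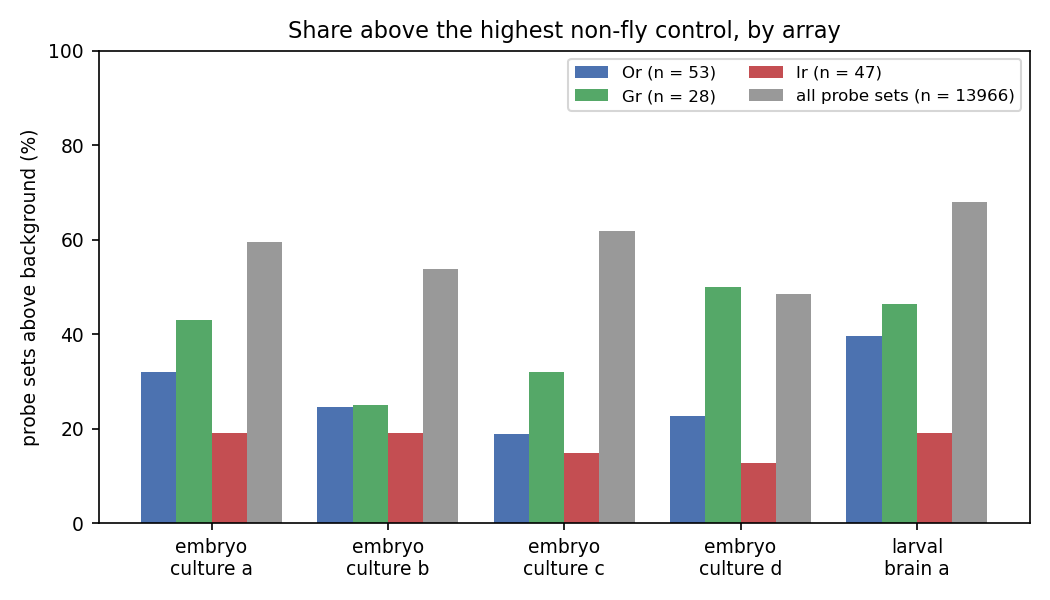
Percentage of Or, Gr and Ir probe sets and of all probe sets with a signal above the highest non-fly control of the same array, for the 5 arrays. Receptor families lie below the grey bars, at 12.8% to 50.0%, except Gr on embryo culture array d.

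The coreceptors were at background in both sources. Orco, which every conventional odorant receptor needs to reach the sensory membrane, had signals of 41.3, 57.7, 41.7 and 144.5 on arrays a to d and 42.6 in larval brain. All 5 values are under the background of their arrays. The acid- and amine-sensing coreceptors showed the same: Ir25a ranged from 29.8 to 184.7 in embryo culture and stood at 39.0 in larval brain, and Ir76b ranged from 28.8 to 103.6 and stood at 70.0. Both probe sets of Ir8a were under background on all 5 arrays, with no value above 66.4.

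In contrast to the coreceptors, 10 receptors were above background on all 4 embryo culture arrays, and 9 of them in larval brain as well. The odorant receptors in this group were Or2a, Or22c and Or46a. Or2a, a receptor of larval and adult olfactory neurons, had 327.7, 348.5, 278.7 and 478.2 on arrays a to d and 450.2 in larval brain, which is 1.74 to 2.34 times background and 5.45 times. The larval value lies within the embryo culture range. Or22c, a receptor of the larval dorsal organ, had 718.0, 752.0, 171.7 and 942.2 on arrays a to d and 410.0 in larval brain. Array c is the low one, at 1.44 times its background, while the others are at 3.47 to 4.86 times. Or46a, a receptor gene of the adult maxillary palp, had 383.4, 343.3, 311.0 and 628.5 on arrays a to d and 283.8 in larval brain, just below the embryo culture range.

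Among gustatory receptors, Gr2a had 648.1, 1098.5, 328.8 and 666.1 on arrays a to d and 600.3 in larval brain. It lay 2.46 to 5.48 times above background in embryo culture and 7.27 times in larval brain, the highest ratio of any member on that array. Gr21a and Gr63a encode the subunits of the carbon dioxide receptor, which acts only when both are present. Gr21a had 401.8, 322.9, 242.8 and 722.5 on arrays a to d and 151.8 in larval brain, above background throughout. Its partner Gr63a had 156.7, 135.7, 108.0 and 297.5 and 155.5, and so was above background on arrays a and d and in larval brain but not on b and c. The excess was small, since on a and d Gr63a exceeded the highest control by less than 1.5 times.

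The other gustatory receptors of this group were Gr32a, Gr98a and Gr89a. Gr32a, a receptor for bitter compounds and a male pheromone, had 193.7, 284.5, 124.0 and 460.1 on arrays a to d and 229.4 in larval brain, between 1.04 and 1.70 times background in embryo culture and 2.78 times in larval brain. Gr98a had 291.1, 336.4, 189.8 and 363.4 and 125.9, with the larval value below all embryo culture values. Gr89a, a receptor of bitter-sensing neurons, had 194.2, 215.9, 125.2 and 271.9, no more than 1.31 times background, and 80.1 in larval brain, at or under it. Of the bitter receptor list, 2 of 6 measured members (Gr32a and Gr89a) were above background on all embryo culture arrays, and 3 were at or under it on all 5 arrays. Of the sugar receptor list, 0 of 4 measured members were above it on all embryo culture arrays and 2, Gr5a and Gr61a, were above it in larval brain.

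The ionotropic receptors of this group were Ir93a and Ir68b. Ir93a, which serves temperature and humidity sensing together with Ir25a, had 869.9, 791.5, 236.8 and 704.1 on arrays a to d and 348.2 in larval brain, by the probe set 151773_at. It was 1.99 to 5.89 times background in embryo culture and 4.22 times in larval brain. Ir25a, its coreceptor, was at background on the same arrays. Ir68b had 303.1, 360.5, 306.5 and 333.6, a narrow spread of 326 ± 26.8 (SD, n = 4), and 191.2 in larval brain. Of 17 probe sets on the antennal Ir list, the 1 of Ir93a was above background on all 5 arrays and 11 (64.7%) were at or under it on all 5.

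**Figure D2:**
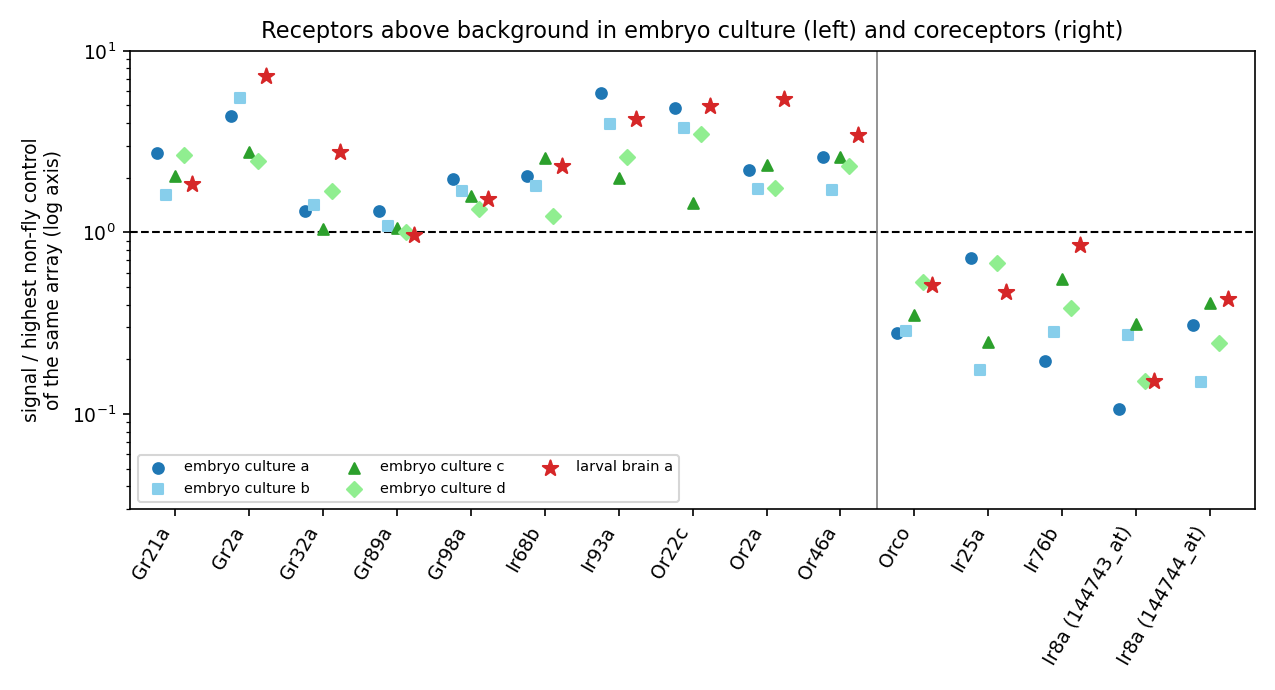
Signal divided by the highest non-fly control of the same array (log axis; the dashed line at 1 is background) for the 10 receptors above background on all 4 embryo culture arrays and for the coreceptors, with 1 point per array. The receptors lie between 0.970 and 7.27, and Orco, Ir25a, Ir76b and both probe sets of Ir8a lie under 1 on all 5 arrays.

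How far these 10 stand above background depends on where background is set. With 1.5 times the highest control as the threshold, Gr2a, Gr21a, Or2a, Or46a and Ir93a (5 members, 3.91%, against 30.8% of all probe sets) were above it on all 4 embryo culture arrays, and the same 5 in larval brain as well. With the highest control of any array, 271.3, applied to all arrays, a threshold chosen after seeing the data, they were Gr2a, Or2a, Or46a and Ir68b (4 members, 3.12%, against 32.6% of all probe sets), of which Ir68b fell short in larval brain. With the median plus 3 scaled median absolute deviations of the controls, which set thresholds of 358.6 to 1306, 0 members were above it on all 4 embryo culture arrays, against 1403 of all 13966 probe sets. In larval brain 4 members (3.12%) were, against 37.1% of all probe sets: Gr2a, Or2a, Or22b and Or22c.

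For most genes with a pair of probe sets, the probe sets did not give the same call. Of the 5 such genes, Ir8a alone had both at background throughout. For Ir93a, 151773_at was above background on all 5 arrays, whereas 150282_at had 13.0, 89.7, 2.2, 32.1 and 26.9 and was under it on all 5. For Or46a, a gene known to give rise to different receptor transcripts, 144129_at was above background on all 5 arrays, whereas 144130_at had 61.4, 27.7, 77.0, 31.6 and 78.2 and was under it on all 5. Ir40a, a humidity receptor gene, was above background on 4 arrays by 146616_at and on 0 by 146617_at. Ir10a was above it on arrays a and b by 144860_at and on 0 arrays by 144861_at. So the call of each of these 4 genes rests on 1 of its probe sets.

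**Figure D3:**
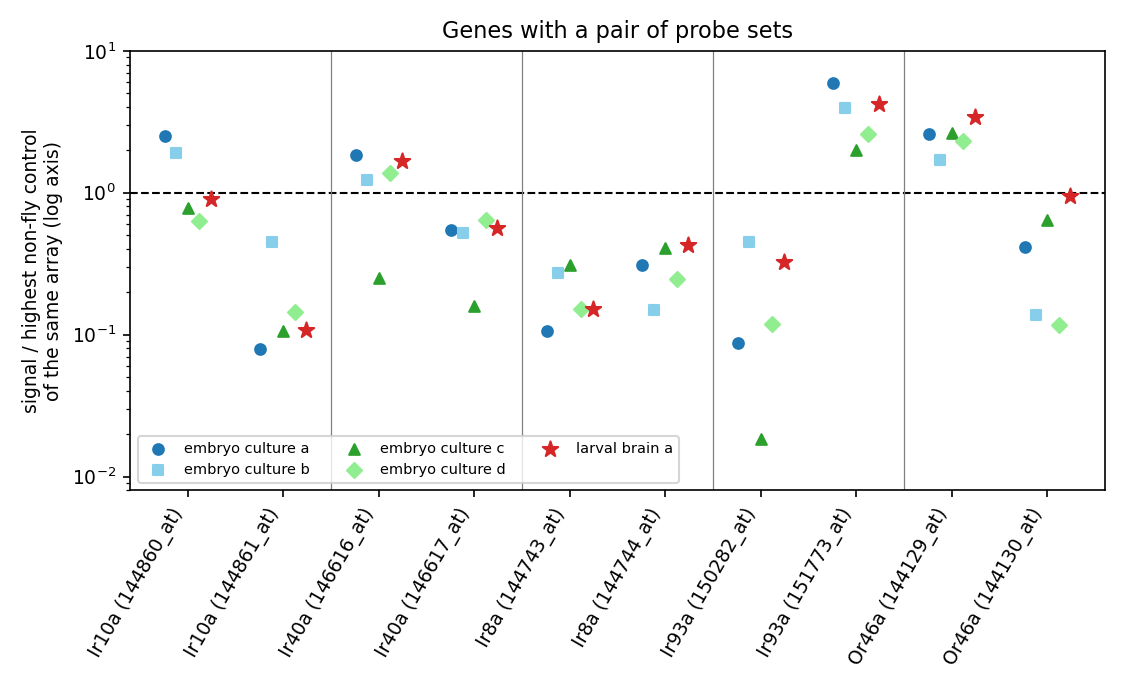
Signal divided by the highest non-fly control of the same array (log axis; dashed line at 1) for both probe sets of the 5 member genes that have a pair, with 1 point per array. In Ir93a and Or46a 1 probe set lies above 1 and the other under 1 on all 5 arrays.

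Some member genes overlap other annotated genes, and the strand that the probes read was not given in the sources used here. In the RefSeq table of Drosophila Release 6, all 128 probe sets matched by Entrez identifier with an unchanged symbol, and the genes of 40 of them overlap another gene. Of the 10 receptors, 4 do. Gr2a overlaps futsch, a neuronal microtubule-associated protein gene, for which 153032_at had 157.6 to 638.0 in embryo culture and 1705.3 in larval brain, above background on all 5 arrays. The other futsch probe sets were above background on 1 array (144060_at) and 0 arrays (144381_at). Gr32a overlaps CG6230, which had 705.8 to 1013.2 in embryo culture and 608.7 in larval brain, also above background on all 5. Or46a overlaps CG12917, which was under background on all 5 arrays, and an antisense RNA gene, and Ir93a overlaps a microRNA gene. The part of overlapping transcripts in the signals of Gr2a and Gr32a was not tested.

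Some members were above background on arrays a and b alone. Or67d, Or83c, Gr93b, Ir10a (144860_at) and Ir64a were above background on arrays a and b and at or under it on c, d and larval brain. They are 5 of 128 members (3.91%), against 0.945% of all probe sets, and were picked out after their values were seen. Or83c, a farnesol receptor, had 481.4 and 394.0 on a and b, and 27.1, 202.1 and 38.7 on c, d and larval brain. Ir64a, an acid receptor, had 476.2 and 347.0, and then 11.0, 48.4 and 6.0. Gr93b had 475.4 and 404.8, and then 12.6, 43.6 and 78.4. The reverse pattern, above on c and d alone, was met by 0 members and by 0.301% of all probe sets. Arrays a and b also differ from the rest in RNA quality values. The 3′ to middle signal ratio of the actin control was 4.65 and 5.55 there, 2.68 and 2.73 on c and d and 2.11 in larval brain, and that of the GAPDH control was 4.18 and 5.14, then 3.22, 3.25 and 2.53. Of the 8 probe sets for markers of neurons in general, 3 were lower on a and b than on the other arrays. One was elav, as given above. The others were nSyb, a synaptic vesicle gene, with 151.3 and 159.3 against 389.3, 423.5 and 909.9, and futsch (153032_at) with 157.6 and 310.8 against 638.0, 583.7 and 1705.3. By 144381_at, futsch was higher on a and b, with 82.4 and 156.5 against 33.3, 25.7 and 50.4. Of the cholinergic markers, ChAT by 142522_at was higher on a and b and ChT lower. By 151604_s_at, ChAT was not higher there, with 1456.8 and 2572.9 against 2845.8, 2926.5 and 2254.7. The part of RNA quality and of cell content in the calls was not tested. Across the 128 members the rank correlation was highest between a and b (Spearman 0.730, against 0.456 to 0.700 for the other pairs of arrays). Across all probe sets that pair also correlated best, at 0.907, and these points share probes and arrays and are not replicates.

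The larval brain array was compared with embryo culture to see whether the receptors differ between the sources. In this comparison 0 of 128 members passed the threshold of limma in either direction, at an adjusted p of 0.05 over all 13966 probe sets, where 3.26% of all probe sets passed, 0.866% higher and 2.39% lower in larval brain. At an unadjusted p under 0.05 there were 2 members (1.56%), Ir60d and Gr61a, against 16.0% of all probe sets. The lone larval array is assumed to vary like the embryo culture arrays, and no difference under 1.35 on the log2 scale passed for any probe set, while the median standard error (SE) over members was 0.63. Differences of up to several fold were therefore not detectable for most receptors.

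For the receptors above background on all 4 embryo culture arrays the intervals were wide. The log2 difference, larval brain minus embryo culture, was -0.07 for Gr2a with a 95% interval from -1.41 to 1.26 (adjusted p = 0.970). It was 0.32 for Or2a, with an interval from -0.88 to 1.51, and -0.40 for Or22c, from -2.14 to 1.34. Each of these intervals holds changes of more than 2-fold in at least 1 direction. Gr21a had the largest difference of the 10, -1.14 ± 0.65 (SE), from 423 ± 210 (SD, n = 4) in embryo culture to 151.8 (adjusted p = 0.451), with the larval value below all 4 embryo culture values. Gr98a, Gr89a, Ir93a and Ir68b followed with -0.95, -0.93, -0.69 and -0.64, and the smallest adjusted p of these 4 was 0.515.

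Outside that group, Gr61a and Ir60d were the members with an unadjusted p under 0.05. Gr61a, a sugar receptor, had 38.8, 47.5, 52.2 and 70.3 on arrays a to d, all under background, and 186.5 in larval brain, above it and above every embryo culture value. Against the geometric mean of the 4 embryo culture backgrounds, that is 1.06-fold higher, with a log2 difference of 1.24 ± 0.51. It is not a lower bound, since the backgrounds of b and d, 200.4 and 271.3, exceed the larval value. Gr61a did not pass the limma test. Ir60d had 319.4, 259.6, 113.8 and 448.2 on arrays a to d, above background on a, b and d, and 32.7 in larval brain, under it. The geometric mean of its embryo culture values is 3.09-fold above larval background. That is not a lower bound, since the value of c is under its own background. The log2 difference was -1.94 ± 0.75 and did not pass the limma test. Or59b, an ester receptor of adult antennal neurons, had 54.0 to 146.8 in embryo culture, under background on all 4 arrays, and 228.5 in larval brain. The larval value is 1.30-fold above the geometric mean of the embryo culture backgrounds, though under the background of d. Or59b did not pass the limma test. Larger differences than that of Gr61a, with larger standard errors and singled out after their values were seen, were those of Ir64a (-1.79 ± 1.14), Or45b (-1.63 ± 0.85), Or83c (-1.58 ± 1.03), Gr68a (-1.39 ± 0.74), Or42b (-1.39 ± 0.87) and Or30a (-1.33 ± 0.65), with adjusted p-values of 0.364 to 0.516. Neither these nor Or22b, Ir60a and Ir75b, with log2 differences of 0.87, 0.73 and 0.59, passed the test.

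Few members were at background in one source and above it throughout the other. With no embryo culture array above background but larval brain above it were 9 members (7.03%), near the 6.91% of all probe sets. They were Gr61a, Ir54a, Ir87a, Or7a, Or43b, Or59b, Or85a, Or85f and Or92a. This call does not require a higher signal, since background was 82.6 in larval brain and 119.0 to 271.3 in embryo culture. Or85a and Ir87a had negative log2 differences, -0.28 and -0.18, and the others positive ones. The reverse, above it on all 4 embryo culture arrays and not in larval brain, was met by Gr89a alone (0.781%, against 1.86%). The larval value was above the embryo culture range for 8 members (6.25%), against 25.6% of all probe sets, and below it for 41 (32.0%), against 28.6%.

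Member differences leaned to lower values in larval brain, and so did those of the controls. The log2 difference was negative for 101 of 128 members (78.9%), against 54.0% of all probe sets, with a median of -0.33 against -0.07. The 63 members at or under background on all 5 arrays had a median of -0.32, near that of the 65 others at -0.40. Of the 23 non-fly controls, which carry no fly transcript, 19 had negative differences (82.6%), with a median of -0.53. Of the 2991 probe sets at or under background on all 5 arrays 75.5% were negative, with a median of -0.22. The median control signal was 46.3, 63.7, 29.4 and 85.8 on arrays a to d and 18.5 in larval brain. By embryo culture array, the member median was -0.24 against a, -0.37 against b, -0.02 against c and -0.67 against d. The medians of all probe sets, in the same order, were -0.02, -0.07, 0.06 and -0.19.

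**Figure D4:**
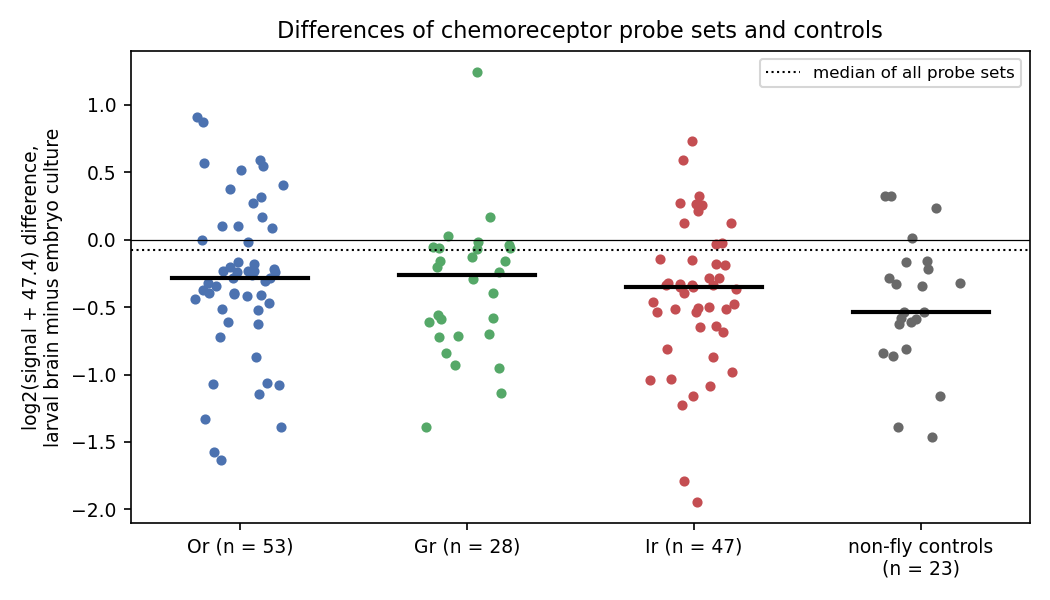
Log2 differences, larval brain minus embryo culture, of the Or, Gr and Ir probe sets and of the 23 non-fly controls, with 1 point per probe set, a black bar at each median and a dotted line at the median of all probe sets (-0.07). The medians are -0.28 for Or, -0.27 for Gr, -0.35 for Ir and -0.53 for the controls.

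The odorant receptors known from larval olfactory neurons were looked at apart from the others, most of which serve adult organs. Of 24 measured larval receptors, 2 (Or2a and Or22c) were above background on all 5 arrays, 10 (41.7%) were above it in larval brain and 8 (33.3%) were at or under it on all 5. Of the 29 other Or probe sets, 1 (Or46a) was above it on all 5, 11 (37.9%) in larval brain and 15 (51.7%) at or under it throughout. In larval brain these shares differ by little and both lie under the 68.0% of all probe sets. No member of either class passed the limma test.

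Genes that work beside the receptors were compared in the same way. Of 50 probe sets for odorant-binding, CheA, CheB and Snmp proteins, which carry odorants or pheromones in the fluid around sensory neurons or sit in their membranes, 5 were above background on all 5 arrays and 23 at or under it throughout. None rose and 2 of 50 fell in larval brain, where 2.39% of all probe sets fell. Obp56d had 1678.0, 1963.4, 2236.7 and 2163.0 on arrays a to d and 43.2 in larval brain, under background. The fall was at least 24.2-fold, with a log2 difference of -4.50 ± 0.39 (adjusted p = 0.000425). Obp56h had 598.8, 689.5, 1035.9 and 683.8 and 4.5 and fell at least 8.90-fold, with a log2 difference of -3.92 ± 0.52 (adjusted p = 0.00453). For both, every embryo culture array is far above the larval value. Obp99a had the largest positive difference of the list, with 781.5, 425.8, 521.7 and 214.9 on arrays a to d and 2793.5 in larval brain, above every embryo culture value (log2 difference 2.53 ± 0.60, adjusted p = 0.0611). Obp44a had 842.4 to 2024.5 in embryo culture and 2102.0 in larval brain (log2 difference 0.86 ± 0.50, adjusted p = 0.465). Obp28a, CheB98a, Obp99c and Obp18a were the others above background on all 5 arrays. Of these, Obp28a was at 86.3 in larval brain, just over the background of 82.6 (log2 difference -2.07 ± 0.54). Obp50e had 446.6 to 1018.7 in embryo culture, above background on all 4 arrays, and 60.7 in larval brain, under it (log2 difference -2.55 ± 0.59). Neither passed the limma test. The gene lush, whose odorant-binding protein takes part in detecting a male pheromone, was at or under background on all 5 arrays.

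Among channels, the thermosensory and nociceptive genes pain, ppk and TrpA1 (by 148430_at) were the 3 of 25 probe sets of the pickpocket and TRP list above background on all 5 arrays. The pain probe set had 526.9 to 723.3 in embryo culture, then 301.1 in larval brain. That of ppk had 413.8 to 761.8, then 272.4. The larval value is below the embryo culture range in both, with adjusted p-values of 0.307 and 0.511. Of the 25 probe sets, 12 were at or under background on all 5 arrays, among them those of the taste-associated pickpocket genes ppk23 and ppk25. Other pickpocket genes were not. The ppk28 probe set had 54.3 to 91.0 in embryo culture, under background throughout, and 187.4 in larval brain, above it. That of ppk29 was above background on array b (202.8) and in larval brain (190.8) alone. Of 13 probe sets for ionotropic glutamate receptors, the relatives of the Ir family, 3 (23.1%) were above background on all 5 arrays: GluRIA, Nmdar1 and Nmdar2 (by 144062_at). GluRIA had 484.1 to 884.4 in embryo culture and 666.2 in larval brain. None of the 38 probe sets on these lists passed the limma test.

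Of 16 probe sets for regulators of sensory neuron fate and Orco, 3 (18.8%) were above background on all 5 arrays, against 37.8% of all probe sets, and 5 (31.2%) were at or under it throughout. The proneural genes of olfactory sense organs were above background on all 5 arrays: ato had 255.7, 359.3, 303.5 and 946.9 on arrays a to d and 1246.1 in larval brain (adjusted p = 0.307), and amos had 242.1 to 453.6 and 360.0 (adjusted p = 0.904). The gene ato also acts in chordotonal organs and the eye. A probe set of dati (152071_at) was above background throughout, and the other dati probe sets, 150978_at and 151462_at, were under it throughout. Of the 16 probe sets 0 passed the limma test.

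**Figure D5:**
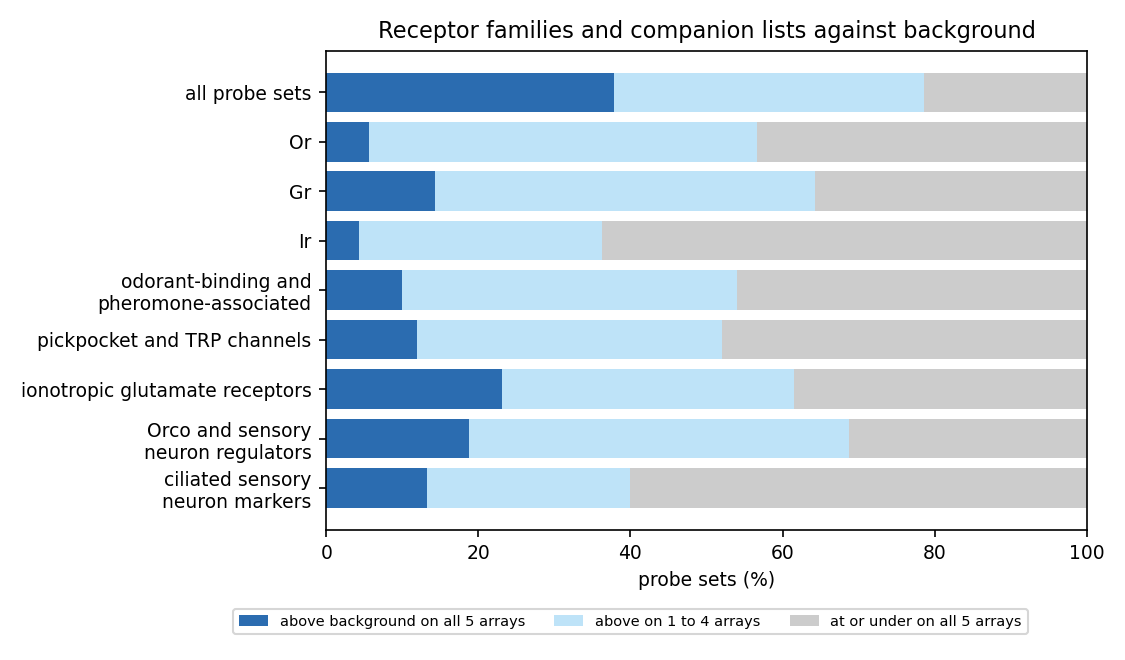
Percentage of probe sets above background on all 5 arrays (dark), on 1 to 4 arrays (light) and at or under it on all 5 (grey), for all probe sets, the receptor families and the companion lists. The dark share is 37.8% for all probe sets and 4.26% to 14.3% for the receptor families.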

How the data were processed

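The deposited table holds linear signal intensities of 14010 probe sets on 5 one-colour arrays, 44 of them controls. Its software and build were not given in the sources used here. Judged from the deposited intensities, the authors had brought all arrays to one mean (500.06 to 500.08 after trimming 2% at each end). The array's annotation gives 12443 probe sets 1 symbol, 327 several and 1196 none.

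Background is the highest of 23 non-fly controls per array. Differences are larval brain minus embryo culture on log2(intensity + 47.4), the 20th percentile, fitted with limma 3.58.1 in R 4.3.3 (eBayes with a trend, two-sided, Benjamini-Hochberg over 13966 probe sets). The fit has 3 residual degrees of freedom, 9.11 after moderation. Python 3.11.15, pandas 2.3.3 and matplotlib 3.10.9 were used. Precision is limited by the small number of arrays.

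The members and lists were chosen with earlier results of these data known. Named were members above background on all 4 embryo culture arrays, or 4-fold above it in larval brain, the 6 with the highest signals per family and source, the 5 largest differences each way among 44 members above background in a source, and the coreceptors. Alternatives were other thresholds, pseudocounts, normalizations, variance models and arrays.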

Additional observations from a re-analysis of the deposited data

Results flagged for a closer look

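Of 60 values examined for 1 embryo culture array apart from the other 3, 4 had one. If values were normally spread, chance would give about 1 in 20, so 4 of 60 is near that share. The check was made on linear signals, and all 4 are high values. It was not repeated on the log2 scale. Orco stood at 144.5 on array d against 41.3 to 57.7 on a, b and c, though under the background of that array. Obp44a stood at 2024.5 on array c against 842.4 to 1020.5 on the others. The proneural gene ato stood at 946.9 on array d against 255.7 to 359.3, and Oseg1, a cilium transport gene, at 496.1 on array a against 300.9 to 327.2.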

How the results depend on the processing

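Counts against background moved with the threshold, and the limma result for the members did not. With 1.5 times the highest control, 5 members were above it on every embryo culture array and 5 on every array (30.8% and 29.1% of all probe sets). With the median plus 3 scaled deviations of the controls, 0 and 0 were, against 1403 and 1250 of all 13966 probe sets. In larval brain 4 members were above it, against 37.1% of all probe sets. At or under it everywhere were 119 members (93.0%), against 53.0% of all probe sets. With the highest control of any array the counts were 4 on every embryo culture array, 7 in larval brain and 3 on every array (32.6%, 43.7% and 28.2% of all probe sets). With embryo culture arrays a and b alone they were 24 and 17 on every array (50.1% and 45.9% of all probe sets), and with c and d alone 18 and 16 (45.3% and 42.7%). The last 3 settings were chosen after seeing the data. Leaving out 1 embryo culture array gave 11 to 14 and 10 to 12 (40.5% to 47.0% and 38.5% to 43.9% of all probe sets). Under 10 alternatives of the fit, 0 members passed, with 0 to 4 at an unadjusted p under 0.05 and a lowest member adjusted p of 0.153. The member median ran from -0.47 to -0.18 and was below that of all probe sets in each. Median centring moved the median of all probe sets from -0.07 to 0.05. Over all probe sets the higher calls were 121, but 77 without the variance trend and 59 to 91 without 1 array. Raising the pseudocount to the 40th percentile made 39.0% of calls higher, against 26.6%. Obp56d and Obp56h passed in all 10.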

Other observations

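Several regulators of receptor choice had higher signals in larval brain without passing the limma test, and were picked out after their values were seen. Their list, 16 probe sets with that of Orco, had a median log2 difference of 0.23. The POU factor gene acj6 had 39.6, 33.1, 18.0 and 57.3 on arrays a to d of embryo culture, all under background, and 299.3 in larval brain (log2 difference 2.06 ± 0.50, adjusted p = 0.0652). Eip93F had 20.4 to 71.3, under background on all 4 arrays, and 302.5 (1.96 ± 0.54, adjusted p = 0.0976). The probe sets of Fer1 had 33.1 to 168.2 and 925.5 (149423_at, adjusted p = 0.0940), and 20.2 to 447.3 and 640.6 (149424_at, adjusted p = 0.390). Those of pdm3 did not give the same call: 146806_at had 30.4 to 62.7 and 289.7 (adjusted p = 0.104), and 146801_at was under background on all 5 arrays. Of the 8 probe sets for markers of neurons in general, the 3 with the largest differences were higher in larval brain without passing the test. These were elav at 3.33 ± 1.05, futsch at 2.05 ± 0.68 (153032_at) and nSyb at 1.66 ± 0.67. Not all of the 8 rose: futsch by 144381_at and brp by 146885_at had -0.19 and -0.20, and the median of the 8 was 0.70. The part of neuronal content in the values of the regulators was not tested. Other regulators on the list were lower in larval brain. Poxn, which directs taste bristle fate, had 151.2 to 303.5, above background on all 4 embryo culture arrays, and 39.1 in larval brain, under it. Its log2 difference was -1.69 ± 0.67 and did not pass the limma test. Those of onecut and of dati by 150978_at and 151462_at, under background on all 5 arrays, were -0.47, -0.13 and -0.44.

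The signals of Grik, a glutamate receptor gene, split as those of Ir64a did, with 958.0 and 1423.7 on arrays a and b and 6.4, 84.2 and 11.8 on c, d and larval brain. Probe sets with several symbols were not members. That of Gr64d and Gr64e was above background in larval brain alone (112.1), that of Gr64b and Gr64c on 0 arrays, and that of Ir75d and COX6AL2 on array d (350.0) and in larval brain (94.6).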
